A study of Mus musculus with 4 samples.

Results

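The genes described here are the tripartite motif (TRIM) family as it stands in a table of RNA counts from mouse 2-cell embryos. Every row whose symbol was Trim followed by a number, with or without a letter from a to d, was taken, which gave 53 of the 27115 rows. Symbols, and not measured values, chose these rows. TRIM proteins known by other names, such as Pml, Mid1 and Mid2, fall outside the rule and are given at the end.

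There were 2 groups of 2 libraries. The first carried the genotype label Trim75 OE, for overexpression of Trim75, and the other was WT control. Both were 2-cell embryos kept in culture in vitro and taken on Day 2, and neither the route of overexpression nor an agent given to the control embryos was stated. The titles of the control libraries carried a tag, L2C, that the titles of the Trim75 OE libraries lacked, and the library numbers in the titles formed a separate run for each group, so anything that followed the tag or the runs cannot be told apart from the overexpression.

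TRIM proteins share a RING domain that recruits an E2 ubiquitin-conjugating enzyme, B-box zinc fingers, a coiled coil and, in most members, a C-terminal part that binds the target. Many work as E3 ubiquitin ligases, the enzymes that pass ubiquitin to a chosen protein, while others act in transcription or in innate immunity. In the 2-cell mouse embryo the maternal RNA and protein made in the oocyte are being cleared while transcription from the embryo's own genome begins.

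Counted reads were 13349188 and 11124411 in the Trim75 OE libraries, and 9965081 and 14599670 in the control libraries. Of the 2-cell embryo markers, 9 of 10 were in the table (Zscan4 genes, Zfp352 and Tcstv genes among them), and they summed to 1576 and 1670 CPM (counts scaled to library size) in Trim75 OE embryos, against 1019 and 1710 CPM in control embryos. The cumulus cell markers, for the cells that surround the oocyte, were in the table for 9 of 10 and summed to 170 and 223 CPM in Trim75 OE embryos, against 193 and 135 CPM in control embryos. Among these markers, Has2, Ptx3 and Foxl2 had 0 reads in both Trim75 OE libraries and between 0 and 3 in the control libraries. Most of the sum came from Nr5a2, at 1695 and 1932 reads in Trim75 OE embryos and 1275 and 1385 in control embryos, and Amhr2, at 532 and 297 reads in Trim75 OE embryos and 589 and 577 in control embryos, while Tnfaip6 had 0 and 136 reads in Trim75 OE embryos and 124 and 3 in control embryos. Sperm markers, with 4 of 10 in the table, summed to 13.99 and 4.51 CPM in Trim75 OE embryos, and to 22.4 and 0.137 CPM in control embryos. The 12 oocyte and maternal markers summed to 8186 and 10083 CPM in Trim75 OE embryos, against 7420 and 8771 CPM in control embryos. Their log2 fold changes were positive for 7 and negative for 5. DESeq2 called 1 of the 12, Bmp15, higher in Trim75 OE embryos (adjusted p 0.024, and 0.32 in edgeR), and it called 3.78% of its genes higher. The part of these marker levels in the TRIM results was not tested. In whole embryos, fewer cells making a transcript and less of it per cell cannot be told apart.

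The window of the genome that holds the overexpressed gene also holds a pair of other TRIM genes. Trim75 lies at chr8:64980884-64987831 (mm10), Trim60 at chr8:64999307-65018584 and Trim61 at chr8:65012987-65018523, all protein coding and on the minus strand. Trim61 lies inside the span of Trim60, and the annotated exons of these neighbours share 66 bases, which is 2.47% of the exon bases of Trim60 and 3.33% of those of Trim61. The promoter windows (250 bases before to 50 bases after the start, RefSeq, GRCm38.p6) are shown here because in each of the 3 genes both Trim75 OE libraries lay above both control libraries, although Trim60 passed no adjusted threshold. Trim60 and Trim61 have the same window. Both lines read 5′ to 3′ on the minus strand, Trim75 at chr8:64987595-64987894 and the shared window at chr8:65018639-65018938, and the capitals mark GGATTA, the reverse complement of TAATCC, a core bound by several paired-like homeodomain proteins.
Trim75: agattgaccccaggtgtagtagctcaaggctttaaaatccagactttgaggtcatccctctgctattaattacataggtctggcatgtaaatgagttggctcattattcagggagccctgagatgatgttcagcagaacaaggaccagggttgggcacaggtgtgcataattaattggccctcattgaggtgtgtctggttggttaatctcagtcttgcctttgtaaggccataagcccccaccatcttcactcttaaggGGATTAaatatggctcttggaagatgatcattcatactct
Trim60 and Trim61: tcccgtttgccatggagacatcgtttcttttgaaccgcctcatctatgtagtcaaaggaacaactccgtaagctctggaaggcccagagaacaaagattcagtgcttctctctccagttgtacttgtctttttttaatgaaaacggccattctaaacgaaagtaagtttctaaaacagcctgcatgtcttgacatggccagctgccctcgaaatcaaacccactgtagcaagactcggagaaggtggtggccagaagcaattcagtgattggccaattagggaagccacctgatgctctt

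The capitals lie 11 bases after the RefSeq start of Trim75. That start lies inside the GENCODE span of Trim75 given above, while the RefSeq start of Trim60 and Trim61 lies beyond their GENCODE spans, so the windows are placed by RefSeq alone. On either strand, TAATCC was found in the windows of 7 of the 43 TRIM members that have one (Trim2, Trim6, Trim32, Trim43a, Trim66, Trim69 and Trim75) and in 7.06% of all 32851 windows. The GC box letters GGGCGG were in the windows of 22 of 43 members and in 35.7% of all windows, the TATA box letters TATAAA in those of 5 members and in 13.6%. A member was counted if any of its windows matched, while the percentages are of single windows. The counts and percentages are therefore not directly comparable. A match is a string of letters and not a binding site, and each of these short strings is common in windows of this length.

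Trim75 was the most clearly separated TRIM member. It had 12091 and 10537 reads in Trim75 OE embryos, against 1773 and 1703 reads in control embryos. Both Trim75 OE libraries stood well above both control libraries, which matches the group labels, and the control libraries themselves held Trim75 transcripts. Counts per gene do not separate introduced from endogenous Trim75 RNA. The level per length was 266 ± 8.41 FPKM (fragments scaled to transcript length and library size) in Trim75 OE embryos and 42.2 ± 12.4 FPKM in control embryos (SD, n = 2 each). The log2 fold change was 2.73 ± 0.28 (SE), with an adjusted p of 0.32 in the quasi-likelihood test of edgeR and of 5.2e-14 in DESeq2, and it ranged from 2.48 to 3.02 over the other settings tried. Nothing in the labels tells whether replicate libraries derive from different embryo pools, and the p-values therefore measure only the spread among these libraries, which may be technical.

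Trim61, the more abundant of the 2 neighbours, measured 742 and 1189 FPKM in Trim75 OE embryos, against 433 and 441 FPKM in control embryos. The groups did not overlap, while the Trim75 OE libraries differed from each other far more than the control libraries did. The log2 fold change of Trim61 was 1.22 ± 0.30 (SE), with an adjusted p of 0.32 in edgeR and 0.013 in DESeq2, and the DESeq2 value became 0.40 without Trim75 OE replicate 2. Trim60 measured 87.4 and 117 FPKM in Trim75 OE embryos and 62.0 and 59.1 FPKM in control embryos, again with no overlap. Its log2 fold change was 0.83 ± 0.26 (SE), and the adjusted p was 0.37 in edgeR and 0.15 in DESeq2. How the submitters' counting treated reads that fall on both genes is not given in the sources used here, so the separate levels of Trim60 and Trim61 are uncertain, although runs of 50 bases found in any other gene made up 0.763% of Trim60, 1.16% of Trim61 and 0% of Trim75. The gene on the other side, Tmem192, which is no TRIM gene, had 226 and 140 reads in Trim75 OE embryos and 159 and 320 reads in control embryos, and its groups overlapped.

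**Figure D1:**
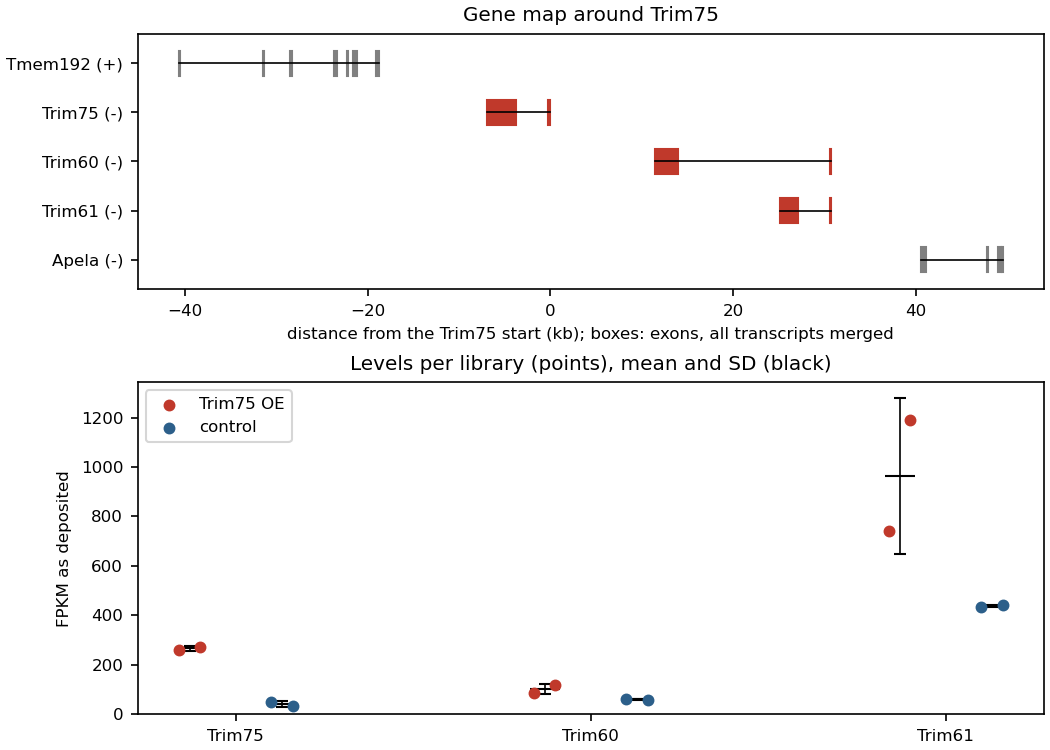
The upper panel maps the exons (boxes) of Trim75, Trim60, Trim61 and their flanking genes by distance in kb from the Trim75 start, with the strand in brackets, and the lower panel plots FPKM per library (points) with the mean and SD in black, Trim75 OE left of control. In each of the 3 TRIM genes both Trim75 OE libraries lie above both control libraries, for Trim75 at 260 and 272 FPKM against 51.0 and 33.5 FPKM.

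The family as a whole took a larger share of the Trim75 OE libraries, and these 3 genes carried most of that. TRIM rows held 0.419% and 0.529% of reads in Trim75 OE embryos, against 0.276% and 0.271% in control embryos. Trim75, Trim60 and Trim61 together made up 62.3% and 68.3% of TRIM reads in Trim75 OE embryos, and 43.5% and 42.4% in control embryos. The other 50 rows summed to 1679 ± 106 CPM in Trim75 OE embryos and 1530 ± 44.8 CPM in control embryos (SD, n = 2 each), a ratio of 1.10. All rows but Trim75 summed to 3936 ± 854 CPM in Trim75 OE embryos and 2539 ± 79.2 CPM in control embryos.

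In control embryos the family covered a wide range of levels, with Trim61 far above the rest. Trim61 averaged 437 ± 5.72 FPKM and ranked 138th of all 27115 rows by mean control FPKM. Next came Trim43a at 64.9 ± 34.9 FPKM, Trim60 at 60.5 ± 2.05, Trim43b at 55.3 ± 2.14, Trim13 at 53.5 ± 11.96, Trim59 at 47.6 ± 20.4, Trim75 at 42.2 ± 12.4, Trim43c at 39.7 ± 13.5, Trim15 at 30.0 ± 12.995 and Trim28 at 29.0 ± 5.80 FPKM (SD, n = 2 each). Most neighbours in this order were not apart. Down to Trim39, the lowest at 1 FPKM or more, both control libraries of a member lay above both of the next one only for Trim61 over Trim43a, Trim60 over Trim43b, Trim28 over Trim8 and Trim25 over Trim38. In Trim75 OE embryos the order began with Trim61, Trim75, Trim13 and Trim60, and Trim75 moved to second place, against seventh place in control embryos.

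By raw reads, which favour long transcripts, the control order was led by Trim61, Trim59, Trim60 and Trim75, and 8 of the 10 most abundant by FPKM were also among the 10 with most reads. A mean of at least 1 FPKM was reached by 30 members in Trim75 OE embryos and 29 members in control embryos. In control embryos that was 54.7% of the members, against 53.8% of all rows. At least 10 FPKM was reached by 17 members in Trim75 OE embryos and 15 in control embryos, and at least 50 FPKM by 5 in each group. In control embryos these were 28.3% and 9.43% of the members, against 22.3% and 6.43% of all rows. At least 1 read was found for 44 and 39 members in the Trim75 OE libraries, 83.0% and 73.6% against 80.7% and 79.9% of all rows. In the control libraries it was found for 40 and 39, 75.5% and 73.6% against 75.5% and 73.1% of all rows.

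**Figure D2:**
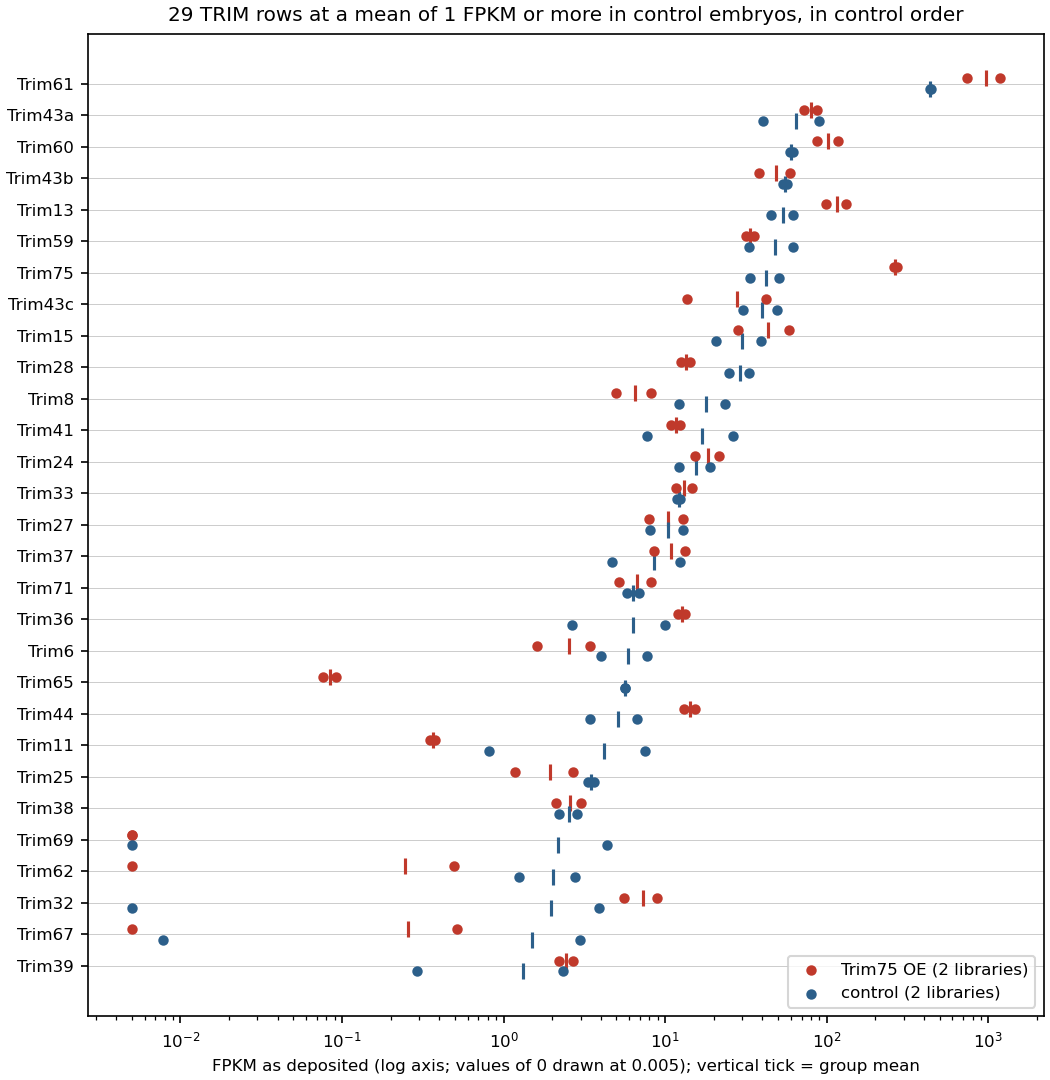
FPKM as deposited (log axis) of the 29 TRIM rows with a control mean of at least 1 FPKM, ordered by that mean; points are libraries, Trim75 OE in red above control in blue, ticks are group means, and values of 0 are drawn at 0.005. Trim61 stands alone at the top of both groups, Trim75 and Trim44 lie to the right in Trim75 OE embryos, and Trim65 lies to the left.

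The Trim43 genes, which are transcribed in the early mouse embryo, formed the other abundant group of near relatives. Trim43a had 2325 and 1595 reads in Trim75 OE embryos and 1771 and 1163 reads in control embryos. Trim43b had 1787 and 966 reads in Trim75 OE embryos and 1281 and 1777 reads in control embryos, and Trim43c had 362 and 932 reads in Trim75 OE embryos and 599 and 1431 reads in control embryos. In all 3 the groups overlapped, and their log2 fold changes of 0.38 ± 0.45, -0.11 ± 0.32 and -0.44 ± 0.69 (SE) each changed sign when 1 library was left out. Their sum was 334 ± 8.48 CPM in Trim75 OE embryos and 326 ± 37.2 CPM in control embryos (SD, n = 2 each). Runs of 50 bases shared with another gene made up 45.9% of Trim43a, 47.7% of Trim43b and 58.6% of Trim43c, so the split among them is uncertain, and 768 exon bases of Trim43c also lie in 9330159M07Rik on the opposite strand.

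Of the 53 rows, 35 passed the filter on low counts and were tested. In edgeR 0 of the 35 passed an adjusted p of 0.05, as did 0% of the 16801 genes tested. At an unadjusted p under 0.05, 7 members were higher in Trim75 OE embryos (Trim13, Trim35, Trim40, Trim44, Trim60, Trim61 and Trim75), which is 20% of those tested against 7.71% of all genes. Lower at that level were 3 members (Trim3, Trim28 and Trim65), 8.57% against 3.53% of all genes. Both Trim75 OE libraries lay above both control libraries for 10 members, 28.6% against 24% of all genes, and below them for 8 members, 22.9% against 19.6% of all genes. DESeq2 gave an adjusted p to 39 members. It called 5 higher in Trim75 OE embryos (Trim13, Trim30a, Trim40, Trim61 and Trim75), 12.8% against 3.78% of its genes, and 1 lower (Trim65), 2.56% against 1.73%. Trim35 and Trim40 passed the filter only through the Trim75 OE libraries, and Trim3 and Trim65 only through the control libraries, so these members had to differ between the groups. All counts of higher members include Trim75, the overexpressed gene. Without it, 6 of 34 tested members were higher at an unadjusted p under 0.05 in edgeR. The DESeq2 call of Trim30a rests on reads from 1 library.

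The median log2 fold change of the 35 members was 0.14 (quartiles -0.62 and 1.14), against 0.03 (quartiles -0.63 and 0.77) over all genes tested. It was positive for 21 members and negative for 14, against 8616 and 8185 of all genes. Placing Trim40, which had 0 reads in control embryos, at its bound left the median at 0.14. This had to be so, since the fitted value and the bound of Trim40 both lie above the median. Without control replicate 1 the filter on low counts kept 44 members and 19680 genes. Over these larger sets the medians were 0.73 for the TRIM members and 0.37 for all genes. The effect of the dropped library and that of the added rows cannot be told apart in these medians.

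**Figure D3:**
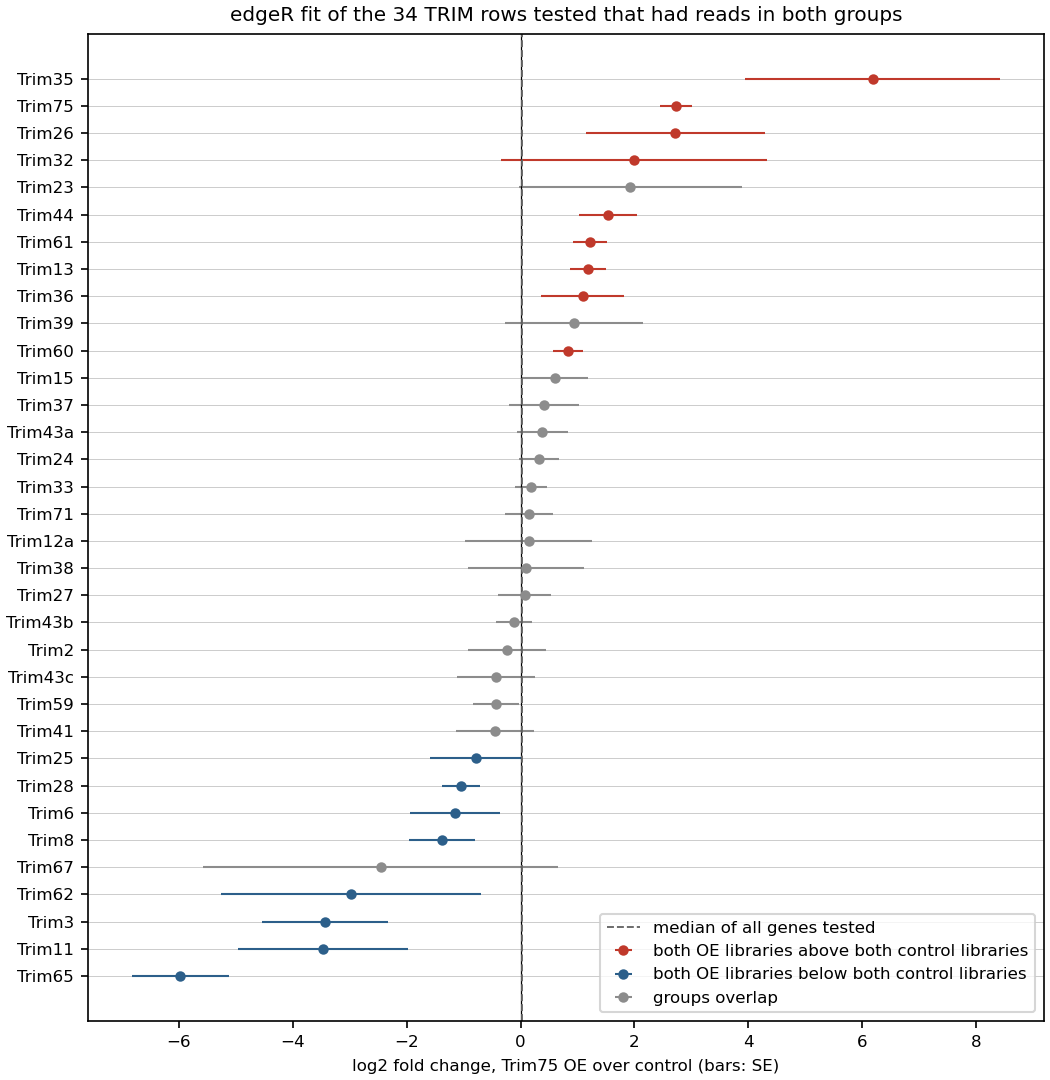
Log2 fold changes of Trim75 OE over control (x axis) from edgeR for the tested TRIM rows with reads in both groups, one row per gene, bars showing the SE; red marks both Trim75 OE libraries above both control libraries, blue both below, and grey overlap. Trim35, Trim75 and Trim26 lie farthest to the right and Trim65, Trim11 and Trim3 farthest to the left, while the dashed line shows the median of all genes at 0.03.

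Outside the Trim75 locus, Trim13 was the most abundant member with both Trim75 OE libraries above both control libraries. Trim13 is a ligase held in the membrane of the endoplasmic reticulum, known in human cells for degrading misfolded proteins. It had 2181 and 2414 reads in Trim75 OE embryos and 1018 and 1084 reads in control embryos, with no overlap. The log2 fold change was 1.19 ± 0.32 (SE), with an adjusted p of 0.32 in edgeR and 0.047 in DESeq2, and the DESeq2 call was lost without control replicate 2 (0.18), without Trim75 OE replicate 1 (0.38) and without Trim75 OE replicate 2 (0.95). Of its 50-base runs 14.2% occur in another gene. Trim44, which lacks a RING domain and stabilises partner proteins in human cells, had 1155 and 817 reads in Trim75 OE embryos and 194 and 553 reads in control embryos. The groups did not overlap, and the log2 fold change was 1.54 ± 0.51 (SE), with an adjusted p of 0.39 in edgeR and 0.11 in DESeq2.

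Trim26 had 80 and 344 reads in Trim75 OE embryos and 54 and 9 reads in control embryos. Its groups were apart by a small margin and both were widely spread, and edgeR gave a log2 fold change of 2.72 ± 1.57 (SE) at an adjusted p of 0.67. Trim35 had 165 and 24 reads in Trim75 OE embryos and 2 and 0 reads in control embryos. The adjusted p of Trim35 was 0.43 in edgeR and 0.069 in DESeq2. Trim36, which has a COS box that binds microtubules, had 876 and 664 reads in Trim75 OE embryos and 491 and 192 reads in control embryos, and edgeR gave a log2 fold change of 1.09 ± 0.73 (SE) at an adjusted p of 0.74.

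Among tested members with reads in both groups, Trim65 had the largest fitted difference in the other direction. It encodes a ligase that acts on the RNA sensor MDA5 in innate immunity. Trim65 had 6 and 6 reads in Trim75 OE embryos, against 333 and 485 reads in control embryos. All 4 values were tight within their group, at 0.084 ± 0.011 FPKM in Trim75 OE embryos and 5.66 ± 0.024 FPKM in control embryos (SD, n = 2 each). The log2 fold change was -5.98 ± 0.85 (SE), with an adjusted p of 0.32 in edgeR and 6.5e-09 in DESeq2. With each of the 4 libraries left out in turn, DESeq2 gave a log2 fold change from -6.16 to -5.88. Trim65 passed the filter on low counts only through the control libraries, so it had to differ between the groups. Trim65 shares 225 exon bases with Trim47 on the same strand, and Trim47 had 26 and 0 reads in Trim75 OE embryos and 0 reads in both control libraries.

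The other members with both Trim75 OE libraries below both control libraries were less tight. Trim8 had 404 and 204 reads in Trim75 OE embryos and 450 and 1272 reads in control embryos, for which edgeR gave a log2 fold change of -1.39 ± 0.58 (SE) at an adjusted p of 0.51. Trim6 had 106 and 187 reads in Trim75 OE embryos and 197 and 552 reads in control embryos, with an adjusted p of 0.76. Trim11 had 18 and 14 reads in Trim75 OE embryos and 29 and 394 reads in control embryos, so that 1 control library held most of its reads. Trim62 had 33 and 0 reads in Trim75 OE embryos and 62 and 204 reads in control embryos, and Trim25, which activates the RNA sensor RIG-I, had 207 and 75 reads in Trim75 OE embryos and 208 and 280 reads in control embryos. None of these passed an adjusted threshold in edgeR or DESeq2.

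The bromodomain TRIM genes Trim24, Trim28, Trim33 and Trim66 encode nuclear proteins that read chromatin. Trim28 is the corepressor that KRAB zinc finger proteins recruit to silence retrotransposons and to keep imprints in the early embryo. It had 787 and 582 reads in Trim75 OE embryos and 1032 and 2010 reads in control embryos, with no overlap. At 57.3 ± 3.65 CPM in Trim75 OE embryos and 119 ± 27.0 CPM in control embryos (SD, n = 2 each), its log2 fold change was -1.05 ± 0.33 (SE), with an adjusted p of 0.37 in edgeR and 0.14 in DESeq2. Trim24 had 1745 and 2040 reads in Trim75 OE embryos and 1601 and 1519 reads in control embryos, and Trim33, a regulator of SMAD signalling, had 1520 and 1599 reads in Trim75 OE embryos and 1156 and 1780 reads in control embryos. After scaling the groups of both overlapped, with log2 fold changes of 0.33 ± 0.35 and 0.19 ± 0.28 (SE). Trim66 had 2 and 0 reads in Trim75 OE embryos and 0 and 2 reads in control embryos and was not tested.

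The proteins that work with TRIM28 showed no common direction. Of 9 partners tested, 5 had positive and 4 negative log2 fold changes, with a median of 0.12, and 0 passed the adjusted threshold in edgeR or DESeq2. At an unadjusted p under 0.05 in edgeR, 3.53% of all genes were lower, and so was 1 of the 9 partners. That gene was Zfp57, a KRAB zinc finger protein that holds TRIM28 at imprinted regions, at 18.2 ± 5.39 CPM in Trim75 OE embryos and 58.8 ± 15.2 CPM in control embryos (SD, n = 2 each), with an adjusted p of 0.36 in edgeR and 0.068 in DESeq2. Setdb1, the histone methyltransferase that TRIM28 recruits, was at 87.5 ± 0.144 CPM in Trim75 OE embryos and 76.0 ± 39.7 CPM in control embryos.

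The NHL TRIM genes are Trim2, Trim3, Trim32 and Trim71, whose C-terminal propeller can bind RNA or protein. Trim71, a target of the let-7 microRNA needed in the early embryo, had 643 and 848 reads in Trim75 OE embryos and 642 and 793 reads in control embryos, and its groups overlapped. Trim3 had 5 and 3 reads in Trim75 OE embryos and 25 and 72 reads in control embryos, a log2 fold change of -3.43 ± 1.11 (SE), with an adjusted p of 0.38 in edgeR and 0.35 in DESeq2. Trim32 had 386 and 200 reads in Trim75 OE embryos and 126 and 0 reads in control embryos. Its groups were apart, but the control libraries differed from each other so widely that the log2 fold change was 1.99 ± 2.33 (SE). Trim2 had 187 and 176 reads in Trim75 OE embryos and 213 and 229 reads in control embryos, with overlapping groups after scaling.

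A further set of abundant members gave overlapping groups. Trim59, which spans a membrane, had 1600 and 1179 reads in Trim75 OE embryos and 1109 and 3035 reads in control embryos. Trim15, a focal adhesion protein in human cells, had 738 and 1283 reads in Trim75 OE embryos and 406 and 1121 reads in control embryos. For Trim59 and Trim15 the ratio between the control libraries was larger than that between the group means, and the log2 fold changes of -0.44 ± 0.40 and 0.61 ± 0.58 (SE) each changed sign without 1 library. Trim27, Trim37, Trim38, Trim39, Trim41, Trim12a, Trim23 and Trim67 also overlapped between the groups. Their log2 fold changes lay between -2.46 for Trim67 and 1.93 for Trim23, and adjusted p-values in edgeR were all at 0.87 or more.

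Whole groups without a read were found for 14 members. The table holds 0 rows without a read in all 4 libraries. A TRIM gene silent in both groups is therefore missing from the 53 rows, and each row at 0 in a group has reads in the other. In control embryos 9 members had 0 reads, which is 17.0% of the members against 13.4% of all rows, and in 2 of these (Trim40 and Trim54) both Trim75 OE libraries had reads, 3.77% of members against 4.3% of all rows. In Trim75 OE embryos 5 members had 0 reads, 9.43% against 8.68% of all rows, and in 1 of these (Trim72) both control libraries had reads, 1.89% against 2.04% of all rows. These shares were close to those of the whole table. Most of the 14 members had their reads in a single library.

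Trim40, which dampens NF-kB signalling in human gut cells, had 93 and 82 reads in Trim75 OE embryos and 0 reads in both control libraries. The Trim75 OE libraries were close to each other, and with 3 reads over the control group as the most that a count of 0 allows, Trim40 was at least 61.2-fold higher in Trim75 OE embryos. Its adjusted p was 0.32 in edgeR and 0.0090 in DESeq2, and without either Trim75 OE library DESeq2 gave it no adjusted p. Trim54, a muscle RING finger protein, had 7 and 20 reads in Trim75 OE embryos and 0 in control embryos, at least 9.44-fold higher in Trim75 OE embryos, and 18.4% of its 50-base runs occur in another gene, chiefly an antisense RNA.

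Trim30a, an inhibitor of Toll-like receptor signalling in mouse, had 0 and 370 reads in Trim75 OE embryos and 0 reads in both control libraries. All of its reads came from Trim75 OE replicate 2, so the bound of at least 129-fold higher in Trim75 OE embryos and the DESeq2 adjusted p of 6.5e-09 rest on that library. Trim68 had 94 and 0 reads in Trim75 OE embryos and 0 in control embryos. Trim30d with 0 and 27 reads, Trim47 with 26 and 0, Trim12c with 23 and 0, Trim80 with 18 and 0 and Trim45 with 0 and 15 reads in Trim75 OE embryos likewise had 0 reads in control embryos. For Trim68, Trim30d, Trim47, Trim12c, Trim80 and Trim45 the bounds, on reads pooled over each group, ran from at least 32.9-fold to at least 5.24-fold higher in Trim75 OE embryos, each from 1 library. The other Trim75 OE library had 0 reads, as the control libraries did, so these bounds do not hold for both Trim75 OE libraries. Runs of 50 bases from other genes made up 33.7% of Trim12c.

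In the other direction, Trim7 had 0 reads in Trim75 OE embryos and 0 and 114 reads in control embryos. Trim69 had 0 reads in Trim75 OE embryos and 82 and 0 reads in control embryos, and Trim31, a ligase of the antiviral adaptor MAVS in mouse, had 0 reads in Trim75 OE embryos and 22 and 0 reads in control embryos. Each of the 3 was seen in a single control library, and the bounds, on reads pooled over each group, were at least 36.2-fold, 26.1-fold and 6.99-fold lower in Trim75 OE embryos. The other control library had 0 reads, so these bounds do not hold for both control libraries. Trim72, with 0 reads in Trim75 OE embryos and 1 and 1 in control embryos, and Trim46, with 0 in Trim75 OE embryos and 2 and 0 in control embryos, had too few reads for a bound. Trim9, Trim30b, Trim50, Trim56 and Trim66 had reads in both groups but too few to be tested, with at most 13 reads in any library.

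**Figure D4:**
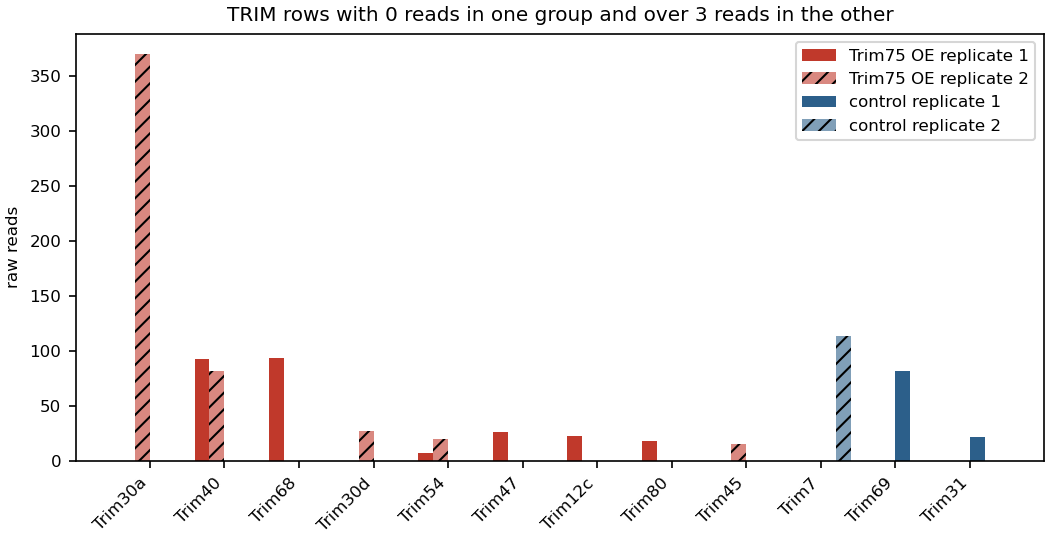
Raw reads (y axis) of the 12 TRIM rows with 0 reads in 1 group and more than 3 in the other, Trim75 OE in red left of control in blue, with replicate 2 hatched. Trim40 and Trim54 have bars in both Trim75 OE libraries, and each of the other genes has a bar in 1 library.

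Reads piled into 1 library were common throughout the family, as in the whole table. Among members with at least 20 reads over a group, more than 90% of the reads came from 1 library for 7 of 39 in Trim75 OE embryos, 17.9% against 16.7% of all rows, and for 8 of 36 in control embryos, 22.2% against 24.9% of all rows. The median fold between the libraries of a group, on CPM + 1, was 1.55 in Trim75 OE embryos and 1.94 in control embryos for TRIM rows, against 1.58 in Trim75 OE embryos and 1.85 in control embryos for all rows. The COS-box gene Trim67 had 60 and 0 reads in Trim75 OE embryos and 261 and 1 reads in control embryos. The ARF-domain gene Trim23 had 351 and 77 reads in Trim75 OE embryos and 91 and 2 reads in control embryos. In both genes the ratio between the control libraries was larger than the ratio between the group means.

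**Figure D5:**
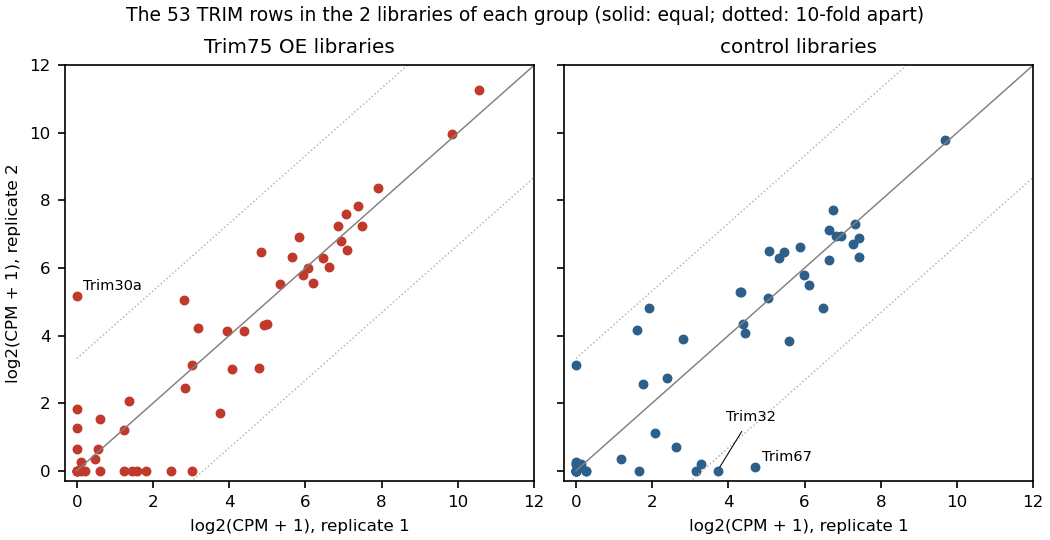
Each point is 1 of the 53 TRIM rows, with log2(CPM + 1) in replicate 1 on the x axis and replicate 2 on the y axis, Trim75 OE at left and control at right. Abundant rows lie near the solid line of equal values, while many rows at low levels sit on or near the axes, and Trim30a in Trim75 OE and Trim32 and Trim67 in control lie beyond the dotted 10-fold lines.

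By position, 20 of the 53 members lay in 6 groups of neighbours no more than 300 kb apart. The Trim75, Trim60 and Trim61 group summed to 3212 ± 798 CPM in Trim75 OE embryos and 1153 ± 3.93 CPM in control embryos (SD, n = 2 each). In all 3 genes both Trim75 OE libraries lay above both control libraries, against 24% of all genes, and Trim75 is the overexpressed gene. Trim47 and Trim65 summed lower, at 2.43 and 0.564 CPM in Trim75 OE embryos and 32.1 and 33.3 CPM in control embryos. Trim41 and Trim7 summed to 38.9 and 45.4 CPM in Trim75 OE embryos and 88.7 and 34.8 CPM in control embryos, which overlap. The sums of the Trim43 group are given above. On chromosome 17, Trim26, Trim15, Trim40 and Trim31 summed to 69.3 and 161 CPM in Trim75 OE embryos and 46.5 and 77.5 CPM in control embryos, which overlap. On chromosome 7, Trim6, Trim12a, Trim12c and the Trim30 genes, several of them known to be induced by interferon, summed to 11.5 and 58.3 CPM in Trim75 OE embryos and 22.2 and 39.2 CPM in control embryos, which also overlap.

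Divided by the C-terminal part, the large PRY-SPRY class, to which Trim75 belongs, had 28 members in the table and 18 tested, with a median log2 fold change of 0.08. Of these, 3 were higher (Trim35, Trim60 and Trim75) and 1 lower (Trim65) at an unadjusted p under 0.05 in edgeR, against 7.71% higher and 3.53% lower of all genes, and 0 passed the adjusted threshold in edgeR. These counts include the overexpressed gene, and Trim35 and Trim65, which passed the filter through a single group. Trim61, Trim40 and Trim44, also higher at that level, were on none of the lists by C-terminal part and are not counted here. Of the PRY-SPRY class, DESeq2 called Trim75 and Trim30a higher and Trim65 lower, and Trim30a had reads in 1 library only. DESeq2 called 3.78% of its genes higher and 1.73% lower. The TRIM genes known to be interferon-induced or antiviral in mouse or human had 7 members in the table and 4 tested, with 0 at an unadjusted p under 0.05 in edgeR and a median of 0.12. Trim30a, which edgeR did not test, was called higher by DESeq2. The summed level of the 7 members was 31.3 and 82.3 CPM in Trim75 OE embryos and 32.8 and 26.8 CPM in control embryos, with the highest value in the library that held the reads of Trim30a.

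The enzymes that feed ubiquitin to TRIM ligases were looked at beside the family. Of the 10 E2 enzymes tested, 8 had positive and 2 negative log2 fold changes, with a median of 0.81 against 0.03 for all genes, and 6 had both Trim75 OE libraries above both control libraries, against 24% of all genes. At an unadjusted p under 0.05, 3 were higher (Ube2d3, Ube2e3 and Ube2w), against 7.71% of all genes, and 0 passed the adjusted threshold in edgeR or DESeq2. Ube2d3, a general partner of RING ligases, measured 2205 ± 921 CPM in Trim75 OE embryos and 1079 ± 43.8 CPM in control embryos, and Ube2e3 measured 235 ± 5.76 CPM in Trim75 OE embryos and 128 ± 9.88 CPM in control embryos (SD, n = 2 each). Their adjusted p in DESeq2 was 0.084 and 0.067.

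TRIM proteins under other symbols gave 3 genes in the table, and all 3 had negative log2 fold changes. Pml, which forms nuclear bodies, had 37 and 59 reads in Trim75 OE embryos and 278 and 261 reads in control embryos. The groups were apart, at 4.18 ± 1.93 CPM in Trim75 OE embryos and 22.4 ± 6.31 CPM in control embryos (SD, n = 2 each), and the log2 fold change was -2.42 ± 0.88 (SE), at an adjusted p of 0.44 in edgeR and 0.095 in DESeq2. Mid1 had 73 and 112 reads in Trim75 OE embryos and 243 and 206 reads in control embryos, with an adjusted p of 0.76 in edgeR, and Mid2 had 24 and 23 reads in Trim75 OE embryos and 24 and 29 reads in control embryos.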

How the data were processed

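Per the file headers, each row of the deposited table holds a read count and an FPKM value for every library. The counts deposited by the authors are raw whole numbers, and the FPKM values deposited by the authors are scaled to gene length and library size. Alignment to mm10 with HISAT2 and counting with featureCounts are credited to the submitters' processing notes, beside FastQC and Trim Galore. Not given in the sources used here are the versions and how strand and multi-mapping were set. Depth was 9965081 to 14599670 reads per library.

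The test ran in R (4.3.3), with edgeR (4.0.16), on the counts of filterByExpr genes with TMM scaling, glmQLFit and glmQLFTest, with Benjamini-Hochberg adjustment over all genes (threshold 0.05). CPM values use the TMM-scaled library sizes. DESeq2 (1.42.0) was run on all rows, and limma (3.58.1) on voom values and on log2(FPKM + 1) and log2(FPKM + 0.1). A whole group at 0 reads was given a floor of 3 reads over the group, which, with all bounds, covers counting error only, since PCR copies are counted. Positions and 50-base runs come from GENCODE transcripts of the same assembly, and promoter windows from RefSeq (GRCm38.p6), which held 43 of the 53 members.

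The members and lists were chosen with earlier results of these data known. Named were Trim75, TRIM genes within 100 kb of it, the 10 highest by control FPKM, members at 0 in a group with at least 10 reads in the other, members called by edgeR or DESeq2, the 6 with the lowest p in each direction (groups apart, mean over 5 CPM), and the bromodomain and NHL members. Other members are named to account for all 53 rows, after their values were seen, as were the genes of the partner lists and Tmem192.

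Alternatives were other scalings and filters, a replicate block, leaving out each library, library sizes without Trim75, and the other tools. Those added after seeing the data were DESeq2 and the count of rows at 0 without each library, and the median over members above 5 CPM. The grouping of members by position, with its limit of 300 kb, was also chosen after seeing the data. One partner list is not reported here. Figures used matplotlib (3.10.9) in Python (3.11.15). Single-cell data named in the study's design text were not analysed here.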

Additional observations from a re-analysis of the deposited data

How the results depend on the processing

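With the other scalings, filters, limma fits, the replicate block and each library left out, 0 genes and 0 TRIM members passed the adjusted threshold, and Trim75 stayed higher in Trim75 OE embryos, at a log2 fold change from 2.48 to 3.02. DESeq2 called 885 genes and 6 TRIM members, and gave Trim75 2.73. Without each library in turn DESeq2 gave log2 fold changes from 2.49 to 2.99 for Trim75 and from -6.16 to -5.88 for Trim65. Which other members it called changed with the library left out, and each such fit has 1 library in a group. In edgeR 1888 genes had an unadjusted p under 0.05, which became 1198 with a filter at 5 CPM and 414 to 3129 with a library left out, where TRIM members at that level, 10 with all libraries, ranged from 2 to 15. The median log2 fold change with a library left out ranged from 0.041 to 0.73 for TRIM members and from -0.069 to 0.37 for all genes. The filter then kept 43 to 46 members and 19091 to 19838 genes, so these medians cover larger sets than the main fit. With a library left out, fitted log2 fold changes reversed for Trim43a (-0.067 to 1.02) and Trim59 (-0.85 to 0.12) without control replicate 2, for Trim43c (-1.502 to 0.14) without Trim75 OE replicate 1, and for Trim43b (-0.46 to 0.15), Trim15 (-0.050 to 1.17), Trim33 (-0.014 to 0.34) and Trim71 (-0.25 to 0.43) without Trim75 OE replicate 2. The causes were not tested. The labels give no pairing beyond a shared number, and same-numbered libraries did not deviate together (r = 0.01 across genes). With the replicate block, 1342 genes and 7 TRIM members had an unadjusted p under 0.05, and Trim75 was at 2.75 with an adjusted p of 0.60 in edgeR. Members without a read in a group numbered 14, 19 at up to 3 reads, 15 with pseudogene symbols, and 15 to 19 with a library left out. Depth limits what can be said of rows under 20 reads over a group.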
